A study of Mus musculus with 8 samples.

Results

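Cytosolic ribosomal proteins are the protein part of the ribosome that translates nuclear-encoded mRNAs, and their genes were followed in 8 RNA-seq libraries of B16F10 cells, a mouse melanoma line. Rows of the expression table were taken when the gene symbol had the standard form of a ribosomal protein, *Rpl*, *Rps* or *Rplp* with a number, or was *Rpsa*. Of 55414 rows, 89 had such a symbol. Of these, 12 that are named as tissue paralogs or annotated as pseudogenes were set apart, which left 77 genes, 46 of the large subunit and 31 of the small subunit. They lie on 19 chromosomes, with 14 of them on chromosome 7.

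The small subunit reads the mRNA and the large subunit joins the amino acids, and each ribosome needs 1 copy of nearly every ribosomal protein. Ribosomal protein mRNAs are among the most abundant of a growing cell and are very stable. Most of them begin with a run of pyrimidines at the cap, the 5′ terminal oligopyrimidine (TOP) motif, through which mTORC1 and the RNA-binding protein LARP1 control their translation and stability. Ribosomal proteins that are made in excess are degraded, and free RPL5 and RPL11 bind MDM2 and stabilise p53.

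The libraries form 4 groups of 2. WT cells and CypD KO cells, in which *Ppif* was targeted with CRISPR/Cas9 followed by puromycin selection of clones, were kept at 21% oxygen. Control cells carried pcDNA without an insert and CypD OE cells carried pcDNA-CypD. Both were stable transfectants from which clones resistant to G418 were picked, and both were kept at 1% oxygen. All groups were kept in their oxygen concentration for 24 h before harvest. *Ppif* encodes cyclophilin D (CypD), a mitochondrial prolyl isomerase that promotes opening of the permeability transition pore. The CypD KO and WT groups share their oxygen concentration, as do the CypD OE and Control groups. The Control and WT groups differ in oxygen, vector, selection and cloning together, and these cannot be told apart. The number of clones behind a group was not given in the sources used here.

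The *Ppif* level was 50.68 and 49.99 TPM in WT and 10.4 and 12.1 TPM in CypD KO. Control libraries had 44.6 and 42.2 TPM, against 50.3 and 49.3 TPM for those labelled CypD OE. It was lower in CypD KO by limma's moderated test (log2 fold change -2.07, adjusted p = 3.81e-06) and was not past the threshold in the libraries labelled CypD OE (0.19, adjusted p = 0.0794). All 8 markers of the melanocyte lineage were above 1 TPM, with a summed level of 12790 to 21390 TPM. The summed level was 9.23 to 37.2 TPM for 6 fibroblast markers, 1.15 to 23.4 TPM for 6 leukocyte markers, 0.03 to 1.2 TPM for 4 endothelial markers and 0 to 0.03 TPM for 4 keratinocyte markers. The leukocyte sum was highest in CypD KO, where *Cd68* reached 21.9 and 23.3 TPM, while *Adgre1* and *Cd3e* were listed at 0 in every library. The fibroblast sum was also highest in CypD KO, at 37.2 and 34.2 TPM against 9.23 to 21.0 TPM in the other groups. In CypD KO *Postn* reached 34.8 and 31.2 TPM, while *Dcn* was listed at 0 in every library. *Col1a2* went the other way, from 9.03 and 6.87 TPM in WT to 1.09 and 2.17 TPM in CypD KO (-1.79, limma adjusted p = 0.00176). The part of these markers in the results was not tested. In bulk RNA, fewer cells of a type and less RNA per cell cannot be told apart.

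Sequences around the annotated start site are shown for the members that set the ends of the range of change in CypD KO, 4 of the 5 with the largest decrease and 4 that did not decrease. Each is 30 bases of the coding strand, 15 on either side of the start, taken from RefSeq on GRCm38.p6. *Rpl7* had no entry. The longest run made only of C and T is in capitals.
Rpl4: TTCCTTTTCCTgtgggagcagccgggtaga
Rpl5: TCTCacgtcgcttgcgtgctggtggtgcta
Rpl7a: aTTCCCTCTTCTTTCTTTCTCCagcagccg
Rpl31: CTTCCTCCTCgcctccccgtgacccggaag
Rpl41: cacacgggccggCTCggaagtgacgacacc
Rpl38: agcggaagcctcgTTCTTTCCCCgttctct
Rps27: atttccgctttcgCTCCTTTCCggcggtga
Rpl39: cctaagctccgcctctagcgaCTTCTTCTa

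The windows are chr9:64173372-64173401 (plus strand) for *Rpl4*, chr5:107900513-107900542 (plus) for *Rpl5*, chr2:26910792-26910821 (plus) for *Rpl7a* and chr1:39367836-39367865 (plus) for *Rpl31*. Those of the members that did not decrease are chr10:128549154-128549183 (minus) for *Rpl41*, chr11:114668565-114668594 (plus) for *Rpl38*, chr3:90213634-90213663 (minus) for *Rps27* and chrX:37085208-37085237 (minus) for *Rpl39*. The longest run had 11 bases in *Rpl4*, 21 in *Rpl7a* and 10 in *Rpl31*, but 4 in *Rpl5*. It had 10 bases in *Rpl38*, 9 in *Rps27*, 8 in *Rpl39* and 3 in *Rpl41*. The runs of *Rpl4*, *Rpl5* and *Rpl31* begin at the first base of the window and may extend beyond it. Within the windows, long and short runs thus stood in both sets of 4.

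Of the 77 members, 57 had an entry in the RefSeq table, and 25 of these (43.9%) held a run of at least 8 bases of C and T on the coding strand of the window. Such a run was in the window of 14.8% of 9475 other tested genes and of 13.9% of all 27025 genes of the table. The median log2 fold change between CypD KO and WT was -0.24 for the 25 members with a run, -0.25 for the 32 with a shorter run and -0.25 for the 20 without an entry. These runs could lie anywhere in the window, not only at the cap, and were cut at its ends. They do not measure the TOP motif, and its part in the changes was not tested.

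The expression values are TPM (transcript abundance scaled to a fixed total per library), in which reads are divided by transcript length, so that levels of different genes can be compared within a library. That comparison rests on the transcript lengths of the authors' gene models and on how reads were divided between members and pseudogenes. The order of members by level is thus approximate. Averaged over the 8 libraries, the members lay between 473 and 3177 TPM with a median of 1321 TPM, a 6.72-fold range. The 5 highest were *Rpl32* (3177 TPM), *Rpl23a* (3125 TPM), *Rps24* (2940 TPM), *Rps3a1* (2931 TPM) and *Rpl26* (2634 TPM). *Rpl23a* and *Rpl26* encode proteins at the exit of the nascent chain tunnel, and *Rps24* is mutated in some patients with Diamond-Blackfan anaemia. The 5 lowest were *Rps20* (473 TPM), *Rpl39* (523 TPM), *Rpl36a* (548 TPM), *Rpl37* (598 TPM) and *Rps14* (643 TPM). Within a group, the 2 libraries differed little. The median absolute log2 difference of the members between replicates was 0.026 in CypD KO, 0.034 in CypD OE, 0.046 in WT and 0.058 in Control, against 0.093 to 0.099 over all genes tested.

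Together the members held 11.8% and 11.5% of all TPM in WT, 9.89% and 9.89% in CypD KO, 11.0% and 11.2% in Control and 11.2% and 11.1% in CypD OE. Both CypD KO libraries lay below all other libraries, and the Control and CypD OE libraries overlapped. The group means were 11.6% ± 0.202 (SD, n = 2) in WT, 9.89% ± 0.00219 in CypD KO, 11.1% ± 0.167 in Control and 11.1% ± 0.0771 in CypD OE. The ratio of the mean shares was 0.85 for CypD KO to WT and 0.952 for Control to WT, and CypD OE and Control differed by less than the replicate spread. The summed share was not tested, because 0.333 is the lowest two-sided p that exact permutation allows in groups of 2. The large subunit held 57.7% to 58.5% of the members' TPM in every library.

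**Figure D1:**
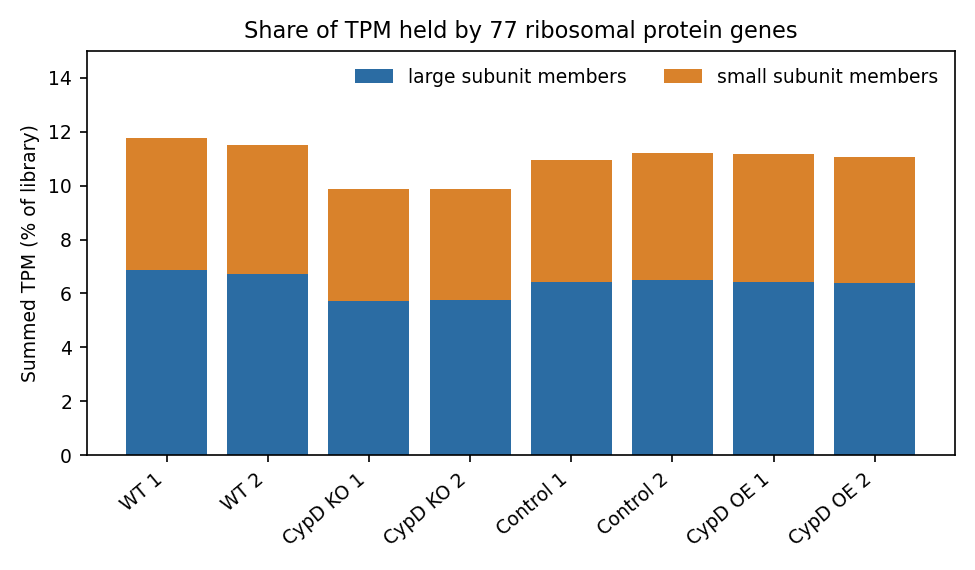
Summed TPM of the 77 ribosomal protein genes as a percent of each library's total, with large subunit genes (blue) below small subunit genes (orange), for the 8 libraries. The 2 CypD KO libraries stand at 9.89%, below the range of 11.0% to 11.8% of the other 6, with nearly the same split between subunits.

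Transcripts of mitochondrial DNA are part of the same total and differed between groups. They held 11.2% of TPM in WT, 10.8% in CypD KO, 9.76% in Control and 13.3% in CypD OE. As a share of the TPM of nuclear protein-coding genes alone, the members held 14.2% ± 0.212 (SD, n = 2) in WT, 11.98% ± 0.0374 in CypD KO, 13.2% ± 0.102 in Control and 14.0% ± 0.0133 in CypD OE. On this scale the CypD OE libraries (14.0% and 14.0%) lay above the Control libraries (13.1% and 13.3%).

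The first comparison asks how the mRNA levels of ribosomal proteins differed between CypD KO and WT cells at normal oxygen. CypD KO cells differ from WT also in transfection, puromycin selection and cloning, which cannot be told apart from the loss of CypD here. All 77 members passed the filter on low values and were tested by limma on log2(TPM + 1). In CypD KO, 66 members fell and 1 rose at an adjusted p under 0.05, and 10 did not pass the threshold. Over all 13526 genes tested, 18.4% fell and 30.1% rose. The median log2 fold change was -0.25 over the members and 0.089 over all genes. Among large subunit members 40 of 46 fell and *Rpl39* rose, and among small subunit members 26 of 31 fell. The median was -0.25 in both subunits. The changes were small and alike, with the lower and upper quartiles of the members at -0.30 and -0.18 and a standard deviation of 0.137 over the 77. The standard deviation over all genes tested, which had passed a filter of only 1 TPM, was 0.641. Genes at a level like that of the members were not compared. Between CypD OE and Control the standard deviation over the members was 0.136.

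**Figure D2:**
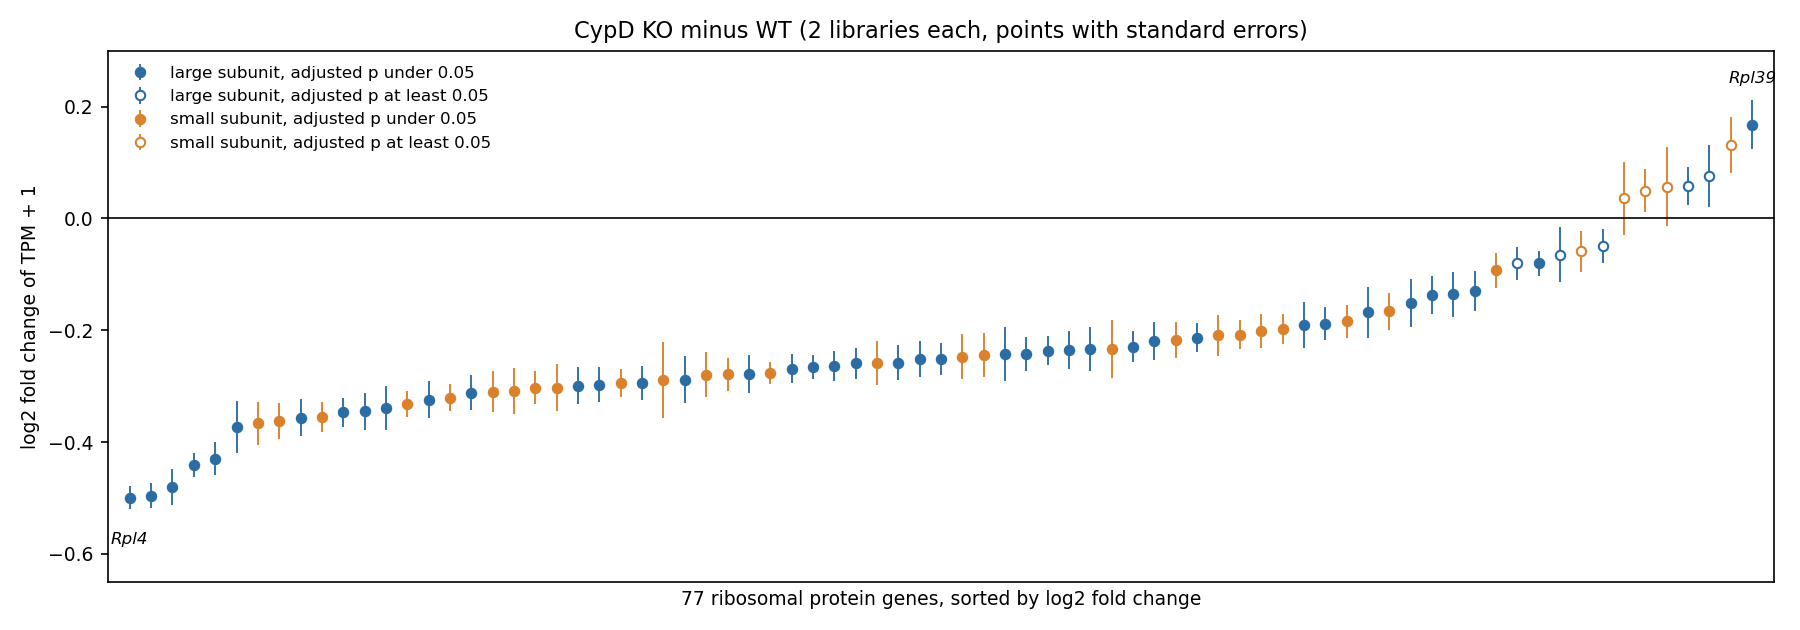
Log2 fold change of TPM + 1 between CypD KO and WT for each of the 77 ribosomal protein genes, sorted, with limma's standard errors as bars and the first and last gene named. Filled points passed an adjusted p of 0.05. The points run from -0.50 for *Rpl4* to 0.17 for *Rpl39*, with 70 below 0 and 7 above, and large (blue) and small (orange) subunit genes are mixed along the range.

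The 5 members with the largest decrease all belong to the large subunit. *Rpl4* encodes a protein whose long loop lines the nascent chain tunnel. Its level was 2018 and 2043 TPM in WT and 1427 and 1444 TPM in CypD KO, a log2 fold change of -0.50 ± 0.020 (SE; limma adjusted p = 6.39e-06). The CypD KO mean differed by -29.3% from that of WT. *Rpl5*, whose product binds 5S rRNA and is 1 of the regulators of MDM2, was 1291 and 1290 TPM in WT and 907 and 923 TPM in CypD KO (-0.50 ± 0.023, limma adjusted p = 9.72e-06). Both CypD KO libraries were also below the Control libraries (1223 and 1215 TPM) and the CypD OE libraries (1248 and 1278 TPM) for this gene.

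*Rpl7*, which encodes a protein near the 5S rRNA, went from 1505 and 1449 TPM in WT to 1083 and 1034 TPM in CypD KO (-0.48 ± 0.033, limma adjusted p = 5.21e-05). *Rpl7a*, known also as a fusion partner of the TRK kinase, was 2335 and 2291 TPM in WT and 1699 and 1708 TPM in CypD KO (-0.44 ± 0.022, limma adjusted p = 1.4e-05). *Rpl31*, a protein of the tunnel exit, was 2231 and 2242 TPM in WT and 1684 and 1637 TPM in CypD KO (-0.43 ± 0.030, limma adjusted p = 5.49e-05). These 3, like *Rpl4* and *Rpl5*, were named among members whose WT and CypD KO libraries did not overlap.

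By position in the ribosome, the decrease was found in every group of proteins examined. The stalk recruits the GTPases of translation, and 3 of its 4 genes fell (*Rplp0*, *Rplp1* and *Rpl12*), while *Rplp2* was 774 and 770 TPM in WT and 719 and 741 TPM in CypD KO (-0.080, limma adjusted p = 0.0649). Of the 2 proteins that form the 5S ribonucleoprotein with 5S rRNA, both fell, *Rpl5* as above and *Rpl11* by 0.24 on the log2 scale (limma adjusted p = 0.00149). Around the tunnel exit 6 of 7 genes fell, among them *Rpl26* (-0.35) and *Rpl23a* (-0.19), and *Rpl39* rose. Of the genes for proteins that reach towards the peptidyl transferase centre 6 of 6 fell, with a median of -0.31. Around the decoding site and the mRNA channel 6 of 8 fell, among them *Rps2* (-0.31) and *Rps3* (-0.26), and *Rps23* and *Rps28* did not pass the threshold. Of 18 members that are Diamond-Blackfan anaemia genes in humans, 15 fell, with a median of -0.23. *Rps19*, the gene most often mutated in that disease, was 711 and 669 TPM in WT and 606 and 567 TPM in CypD KO (-0.23 ± 0.052, limma adjusted p = 0.00898).

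A list of proteins that also take part in signalling held 4 members, of which 3 fell, and *Rack1*, which is not a member. *Rps6*, the substrate of the S6 kinases, was 2513 and 2453 TPM in WT and 2013 and 2036 TPM in CypD KO (-0.29 ± 0.025, limma adjusted p = 0.000126). *Rack1*, a scaffold protein on the small subunit that binds protein kinase C, was 730 and 707 TPM in WT and 559 and 561 TPM in CypD KO (-0.36 ± 0.038, limma adjusted p = 0.000343). The member that did not pass the threshold, *Rpl38*, is needed for translation of several Hox mRNAs in the mouse embryo. Its values of 1261 and 1126 TPM in WT and 1249 and 1263 TPM in CypD KO overlapped.

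The members that did not follow the rest were mostly those with the shortest proteins. In all, 7 members had a log2 fold change above 0, and of these *Rpl39* alone passed the threshold. *Rpl39* encodes a protein of 51 residues inside the tunnel exit. It was 539 and 506 TPM in WT and 590 and 584 TPM in CypD KO, a log2 fold change of 0.17 ± 0.043 (SE; limma adjusted p = 0.0167). The call did not hold without WT replicate 2 (0.12, limma adjusted p = 0.0903), without CypD KO replicate 1 (0.16, adjusted p = 0.079) or without CypD KO replicate 2 (0.17, adjusted p = 0.0626), and with a correction for coding length the direction turned (-0.14, adjusted p = 0.0363).

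*Rpl41*, whose product of 25 residues is the smallest ribosomal protein, was 1523 and 1468 TPM in WT and 1556 and 1558 TPM in CypD KO (0.058 ± 0.033, limma adjusted p = 0.196). *Rps27*, a zinc finger protein of the small subunit, was 1612 and 1583 TPM in WT and 1780 and 1719 TPM in CypD KO (0.13 ± 0.050, limma adjusted p = 0.0669). In *Rpl41* and *Rps27* the CypD KO libraries lay above the WT libraries, without passing the threshold. The other 4 were *Rpl38* (0.076), *Rps28* (0.057), *Rps29* (0.050) and *Rps20* (0.036). The CypD KO libraries lay above the WT libraries in *Rps28* and *Rps29* too, and the groups overlapped in *Rpl38* and *Rps20*. *Rps20*, at 119 residues, was the longest protein among the 7.

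Across the 77 members the change was related to coding length. The 9 members with up to 300 coding bases had their median at 0.057 on the log2 scale, and 2 of them fell. With more than 300 and up to 450 bases, the median was -0.22 and 24 of 27 fell. Between 450 and 600 bases it was -0.25 and 18 of 19 fell, and between 600 and 1300 bases it was -0.31 and 22 of 22 fell. Spearman's rho between coding length and log2 fold change was -0.635 over the 77 members, which were measured in the same 4 libraries. Other protein-coding genes moved with length in the same direction, with medians of 0.20, 0.15, 0.11 and 0.080 in the same 4 bins, so that the median of the members lay below that of other genes in each bin. The part of length in the values was not tested beyond corrections for it. With a correction for coding length, fitted on other genes, 77 of 77 members fell with a median of -0.46. Over all genes the median was -0.055, and 4013 fell and 2840 rose, beside 2486 and 4066 without the correction. The members' median relative to all genes was -0.407 with the correction and -0.341 without it. This correction was chosen after the data had been seen. Of the genes tested, 83.5% had a coding length and could be corrected.

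**Figure D3:**
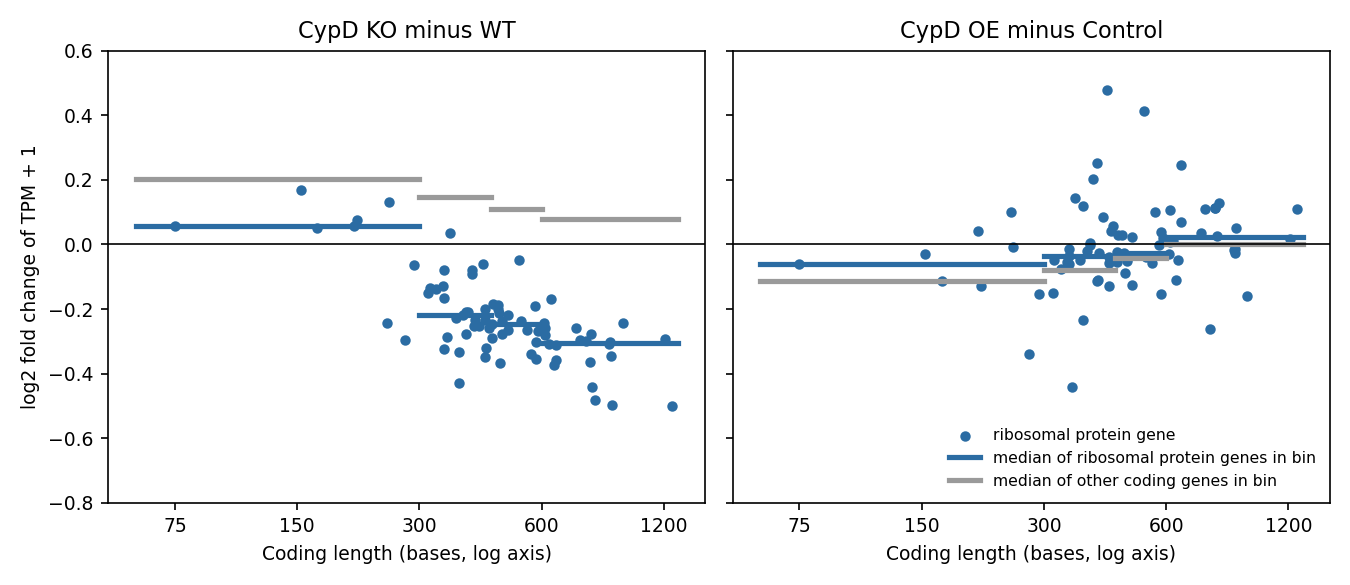
Log2 fold change against coding length (log axis) for the 77 ribosomal protein genes (blue points) in CypD KO minus WT (left) and CypD OE minus Control (right), with the medians of these genes (blue lines) and of other protein-coding genes (grey lines) in 4 bins of length. On the left both sets of medians decline with length, from 0.057 to -0.31 in ribosomal protein genes and from 0.20 to 0.080 in other genes, and on the right the medians rise from -0.060 to 0.023 and from -0.11 to 0.0018.

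The second comparison asks whether the libraries labelled CypD OE differed from Control at 1% oxygen. Both lines came from picked clones, and a difference between clones cannot be told apart from the insert here. Here members moved in both directions. Of the 77, 11 rose, 11 fell and 55 did not pass the threshold, where over all genes tested 19.0% rose and 18.3% fell. The median log2 fold change was -0.019 over the members and 0.0021 over all genes. In the large subunit 5 rose and 8 fell of 46, and in the small subunit 6 rose and 3 fell of 31. The count of members that fell was 5 without Control replicate 2, 6 without CypD OE replicate 1 and 5 without CypD OE replicate 2. With TPM scaled to nuclear protein-coding genes, 28 members rose and 4 fell, with a median of 0.064. This scaling shifts all genes alike, and over all genes 3504 were higher and 1961 lower with a median of 0.076, so that the median of the members relative to all genes was -0.012, beside -0.021 without it.

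The largest increase was in *Rps23*. It encodes a protein of the decoding centre that takes part in the accuracy of translation. Its level was 1085 and 1037 TPM in Control and 1478 and 1480 TPM in CypD OE, 39.5% higher (log2 fold change 0.48 ± 0.037, limma adjusted p = 0.000143). Both WT libraries (1161 and 1096 TPM) and both CypD KO libraries (1065 and 1100 TPM) were near the Control level, so that the libraries labelled CypD OE stood apart from the other 6.

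Smaller increases were found in *Rpl32*, *Rpl14* and *Rps12*. *Rpl32* was 3089 and 3128 TPM in Control and 3757 and 3643 TPM in CypD OE (0.25 ± 0.023, limma adjusted p = 0.000291). *Rpl14* was 790 and 747 TPM in Control and 916 and 908 TPM in CypD OE (0.25 ± 0.033, limma adjusted p = 0.00154). *Rps12*, which in flies reports on ribosomal protein dose in cell competition, was 1774 and 1832 TPM in Control and 2057 and 2096 TPM in CypD OE (0.20 ± 0.026, limma adjusted p = 0.00126). A further 6 that rose, *Rpl7*, *Rps25*, *Rps3a1*, *Rps4x*, *Rpl4* and *Rps6*, lay between 0.11 and 0.13.

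The largest decreases were in *Rpl34* and *Rpl37a*. *Rpl34* was 728 and 772 TPM in Control and 557 and 546 TPM in CypD OE, a change of -26.4% (log2 fold change -0.44 ± 0.043, limma adjusted p = 0.000377). *Rpl37a*, a zinc finger protein of the large subunit, was 931 and 987 TPM in Control and 758 and 757 TPM in CypD OE (-0.34 ± 0.031, limma adjusted p = 0.000286). In both genes the CypD OE libraries were the lowest of the 8, below CypD KO (588 and 582 TPM for *Rpl34*, 784 and 785 TPM for *Rpl37a*).

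*Rpl8*, next to the peptidyl transferase centre, was 1639 and 1722 TPM in Control and 1420 and 1381 TPM in CypD OE (-0.26 ± 0.034, limma adjusted p = 0.00129). *Rpl31* was 2238 and 2335 TPM in Control and 1973 and 1915 TPM in CypD OE (-0.23 ± 0.030, limma adjusted p = 0.00125). *Rplp0*, the base of the stalk and a common reference gene in RT-qPCR, was 1453 and 1522 TPM in Control and 1377 and 1286 TPM in CypD OE (-0.16 ± 0.049, limma adjusted p = 0.0399). The call for *Rplp0* did not hold without Control replicate 1 (-0.19, limma adjusted p = 0.0602), without Control replicate 2 (-0.13, adjusted p = 0.171) or without CypD OE replicate 2 (-0.11, adjusted p = 0.192). It was also lost without CypD KO replicate 1 or 2, which leaves the difference as it was and widens the shared error (adjusted p = 0.0617 and 0.0616).

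**Figure D4:**
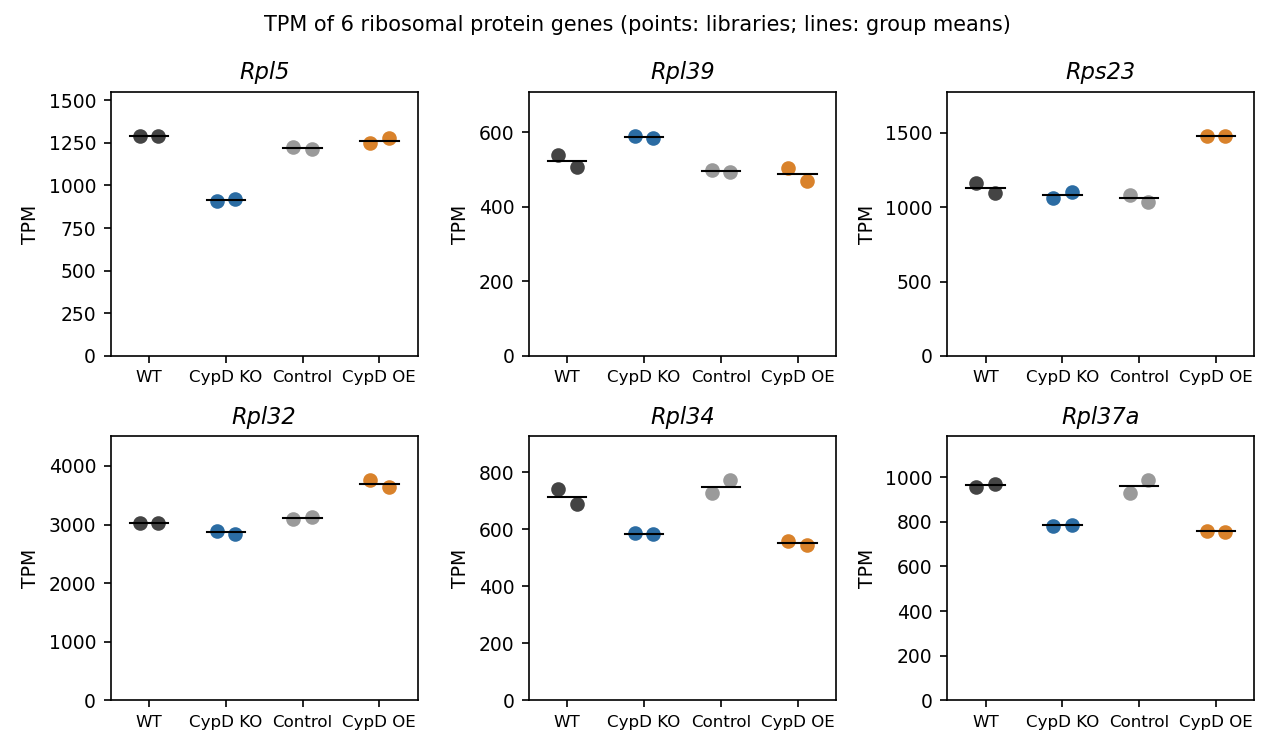
TPM in each of the 8 libraries (points) with group means (lines) for 6 ribosomal protein genes. *Rpl5* is lowest in CypD KO (907 and 923 TPM) and *Rpl39* highest there (590 and 584 TPM), *Rps23* and *Rpl32* are highest in CypD OE, and *Rpl34* and *Rpl37a* are lower in CypD KO and CypD OE than in WT and Control.

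The comparisons of CypD KO with WT and of CypD OE with Control share no library. Of the 66 members that fell in CypD KO, 9 rose, 10 fell and 47 did not pass the threshold in CypD OE. Over all genes tested, 19.0% rose and 18.3% fell in CypD OE. *Rpl4* and *Rpl7*, among the 5 largest decreases in CypD KO, rose in CypD OE (0.11 and 0.13, limma adjusted p = 0.00576 and 0.0204). *Rpl5* had a log2 fold change of 0.051 (limma adjusted p = 0.124), and *Rpl31* fell in both. *Rps23*, with the largest increase in CypD OE, had a log2 fold change of -0.059 in CypD KO that did not pass the threshold (limma adjusted p = 0.232). A difference between the 2 comparisons was not tested for single genes.

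**Figure D5:**
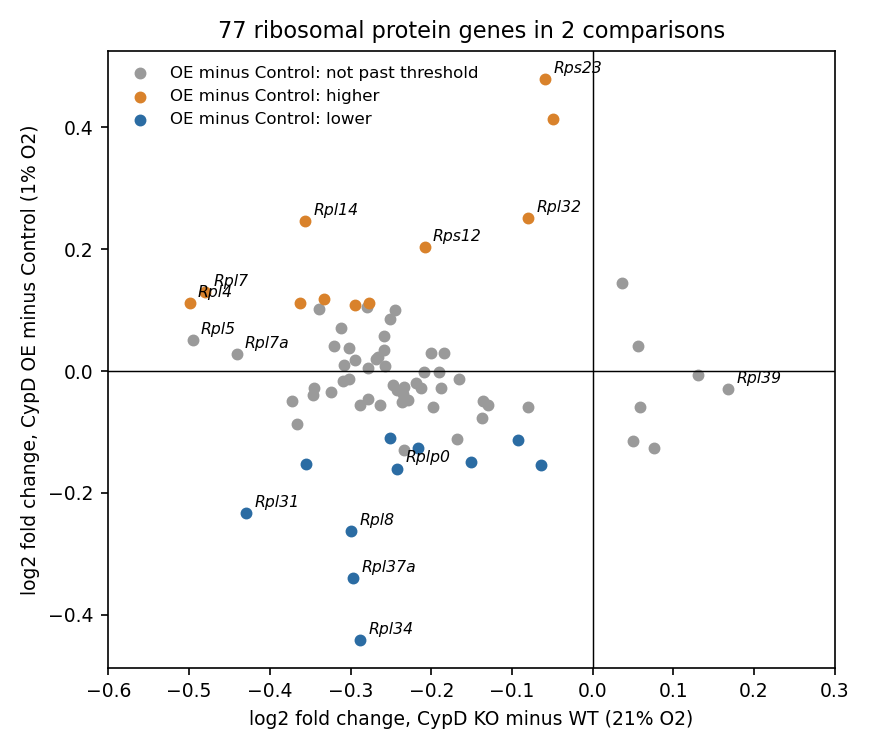
Log2 fold change of TPM + 1 in CypD KO minus WT (x axis) and in CypD OE minus Control (y axis) for the 77 ribosomal protein genes, with genes that rose (orange) or fell (blue) in CypD OE and the largest changes named. Most points lie left of 0 on the x axis, where 66 genes fell, and on both sides of 0 on the y axis, where 11 rose and 11 fell.

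Control cells at 1% oxygen were set beside WT cells at 21% oxygen as well, in a comparison that shares its libraries with both others. Of the members 0 rose and 20 fell by limma at an adjusted p under 0.05, and 57 did not pass the threshold. At an unadjusted p under 0.05, 1 rose and 32 fell, beside 2594 and 2518 of all 13526 genes tested. Of all genes, 12.1% rose and 12.1% fell at the adjusted threshold. The median log2 fold change was -0.073 over the members and 0.012 over all genes, and 61 of 77 were below 0. By subunit, 15 of 46 large and 5 of 31 small subunit members fell. The count that fell was 11 without WT replicate 1. *Rpl4* was 1636 and 1656 TPM in Control, below WT and above CypD KO (-0.30 ± 0.020 against WT, limma adjusted p = 0.000208). *Rpl14*, at 790 and 747 TPM in Control and 956 and 925 TPM in WT, had a log2 fold change of -0.29 ± 0.033 (limma adjusted p = 0.00151).

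*Rpl24*, a protein of the bridge between the subunits, was 1040 and 1060 TPM in Control and 1272 and 1234 TPM in WT (-0.25 ± 0.026, limma adjusted p = 0.000977). *Rps9* was 1060 and 1132 TPM in Control and 1308 and 1267 TPM in WT (-0.23 ± 0.042, limma adjusted p = 0.00904). Its call did not hold without WT replicate 1 (-0.21, limma adjusted p = 0.0535). *Rpl7* was 1243 and 1282 TPM in Control, against 1505 and 1449 TPM in WT (-0.23 ± 0.033, limma adjusted p = 0.00385). These 5 were named among members past the threshold whose Control and WT libraries did not overlap.

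Of the 12 genes set apart, 7 passed the filter on low values in the same fit, and 3 of these fell in CypD KO (*Rps27l*, *Rpl7l1* and *Rpl6l*). *Rpl39l*, *Rpl10l*, *Rps4l* and *Rps12l1* were listed at 0 in every library, and *Rpl3l*, a striated muscle paralog of *Rpl3*, was 0.11 TPM in 1 WT library and 0 in the others. *Rps27l*, a paralog of *Rps27* induced by p53, was 693 and 688 TPM in WT, 592 and 586 TPM in CypD KO, 608 and 590 TPM in Control and 527 and 511 TPM in CypD OE. It fell in CypD KO (-0.23, limma adjusted p = 0.000605), in CypD OE (-0.21, adjusted p = 0.00152) and in Control against WT (-0.21, adjusted p = 0.00293). *Rpl7l1*, which acts in ribosome assembly, was 203 and 190 TPM in WT and 161 and 167 TPM in CypD KO (-0.26, limma adjusted p = 0.0127). *Rpl22l1* was 190 and 181 TPM in WT and 201 and 197 TPM in CypD KO (0.10, limma adjusted p = 0.523), with 170 and 227 TPM in Control and 184 and 199 TPM in CypD OE.

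Of the 12, 5 are annotated as processed pseudogenes. Besides *Rps12l1*, these are *Rpl6l* (29.5 to 42.6 TPM over the 8 libraries), *Rps3a2* (23.5 to 30.7 TPM, higher in CypD OE than in Control, limma adjusted p = 0.0272), *Rps3a3* (1.11 to 5.53 TPM) and *Rpl32l* (0.45 to 4.09 TPM). A further 319 rows carry the name of 1 of 62 members with a pseudogene suffix. Of these, 175 were above 0 in some library and 34 reached 10 TPM, and together they held 0.128% to 0.147% of TPM in the 4 groups. Reads that fit a member and its pseudogene were divided between them by the authors' estimation, so the split is uncertain. *Rps23-ps1* was 215 and 221 TPM in WT, 201 and 220 TPM in CypD KO, 207 and 182 TPM in Control and 289 and 265 TPM in CypD OE, and was thus highest in the same group as *Rps23*. *Rpl14-ps1* was 173 and 129 TPM in Control and 190 and 186 TPM in CypD OE.

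The symbols of some genes of the cytosolic ribosome, or close to it, fall outside the rule. *Fau*, a fusion of a ubiquitin-like protein with a small subunit protein, was 779 and 767 TPM in WT and 731 and 741 TPM in CypD KO (-0.071, limma adjusted p = 0.16), and fell from 913 and 847 TPM in Control to 724 and 716 TPM in CypD OE (-0.29, adjusted p = 0.00133). *Rpl36al*, a close copy of *Rpl36a*, fell in both (-0.12 and -0.42, limma adjusted p = 0.0127 and 0.000104). *Rack1* fell in CypD KO, as given above, and was 646 and 695 TPM in Control and 666 and 657 TPM in CypD OE (-0.020, limma adjusted p = 0.729).

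Translation factors and other genes whose mRNAs are known to begin with a TOP motif were a list of 20. In CypD KO 15 of them fell and 1 rose, with a median of -0.32, beside -0.25 in the ribosomal proteins. Of all genes tested, 18.4% fell and 30.1% rose there. The largest changes were in *Hnrnpa1*, a splicing factor (-0.76, limma adjusted p = 2.71e-06), *Npm1*, a nucleolar chaperone of ribosome assembly (-0.74, adjusted p = 3.81e-06), and *Eif4a2*, a helicase of initiation, which rose (0.71, adjusted p = 9.49e-06). *Npm1* was 3483 and 3574 TPM in WT and 2098 and 2113 TPM in CypD KO. *Eef1a1*, the most abundant of the list, was 10292 and 10217 TPM in WT and 8489 and 8399 TPM in CypD KO (-0.28, limma adjusted p = 7.01e-05). In CypD OE 8 of the 20 rose and 3 fell, where 19.0% of all genes tested rose and 18.3% fell. The largest increases were in *Btf3* (0.29) and *Npm1* (0.28). In Control against WT 16 fell and 1 rose, with a median of -0.19, where 12.1% of all genes tested fell and 12.1% rose.

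Of 22 regulators of TOP mRNAs and mTORC1, 4 rose and 7 fell in CypD KO, with a median of 0.013. Over all genes tested, 30.1% rose and 18.4% fell there. *Ddit4*, an inhibitor of mTORC1 induced by low oxygen, was 9.30 and 7.60 TPM in WT, 39.8 and 40.1 TPM in CypD KO, 41.5 and 42.1 TPM in Control and 5.83 and 5.63 TPM in CypD OE. It rose in CypD KO (2.12, limma adjusted p = 8.46e-06) and fell in CypD OE (-2.67, adjusted p = 4.67e-06). *Eif4ebp1*, the repressor of cap-dependent initiation, rose from 46.4 and 45.4 TPM in WT to 98.3 and 88.9 TPM in CypD KO (1.01, limma adjusted p = 3.93e-05) and from 51.2 and 47.7 TPM in Control to 74.2 and 69.5 TPM in CypD OE (0.53, adjusted p = 0.00108). *Sesn2*, an inhibitor of mTORC1 in low leucine, rose in CypD KO (0.96, limma adjusted p = 7.83e-05). *Eif4ebp2* (-0.65, limma adjusted p = 9.41e-05) and *Deptor* (-0.41, adjusted p = 0.000505) fell there. In CypD OE 4 of the 22 rose and 5 fell, near the shares of 19.0% and 18.3% over all genes tested. *Larp1*, the binder of the TOP motif, was 115 and 115 TPM in Control and 148 and 148 TPM in CypD OE (0.36, limma adjusted p = 0.000234). It fell in CypD KO (-0.15, limma adjusted p = 0.00604). The activity of mTORC1 was not measured here, and its part in the levels of the members was not tested.

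Chaperones that hold single ribosomal proteins before assembly were a list of 9. In CypD KO 7 of them fell, with a median of -0.28, where 18.4% of all genes tested fell and 30.1% rose. *Grwd1*, the chaperone of RPL3, was 44.8 and 43.2 TPM in WT and 30.2 and 23.2 TPM in CypD KO (-0.71, limma adjusted p = 0.00241), while *Rpl3* itself was 1256 and 1201 TPM in WT and 1010 and 993 TPM in CypD KO (-0.29, adjusted p = 0.000295). *Tsr2*, the chaperone of RPS26, fell by 0.49 on the log2 scale (limma adjusted p = 0.00398). In CypD OE 2 rose, *Grwd1* (0.42, limma adjusted p = 0.0291) and *Bccip* (0.31, adjusted p = 0.000626), and *Aamp* fell (-0.37, adjusted p = 0.0015). The shares over all genes tested were 19.0% higher and 18.3% lower there. In Control against WT 4 fell, with *Grwd1* at 27.4 and 24.9 TPM in Control (-0.73, limma adjusted p = 0.00562), where 12.1% of all genes tested fell.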

How the data were processed

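Total RNA libraries made after removal of ribosomal RNA were sequenced as paired ends. Per the labels and the study's methods, the authors used Cutadapt 3.4 for trimming, STAR 2.7.8a for alignment to GRCm39 and RSEM 1.3.1 for gene-level estimates. These estimates were deposited by the authors as TPM, whose sum is the same in every library, so that a change in a few abundant transcripts moves all other values. RSEM divides reads that match several genes. The authors' own tests used DESeq2 1.26.0 on counts, and the release of the gene models was not given in the sources used here.

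The filter on low values kept the 13526 genes that reached 1 TPM in 2 or more of the 8 libraries. Their values were transformed as log2(TPM + 1) and fitted in limma 3.58.1 (R 4.3.3) with 1 mean per group, all 8 libraries together and a mean-dependent prior in eBayes. All tests were two-sided. Adjustment by Benjamini-Hochberg covered all genes tested, and the threshold was 0.05. A fold change on this scale is the difference of the group means of log2(TPM + 1). Whether the replicates were separate cultures was not stated, so p-values measure only the spread between these samples. The members and gene lists were chosen with earlier results of these data known. Genes were named by rule: the 5 largest changes of members in each direction of each comparison past the threshold and without overlap of libraries, the 5 highest and lowest members by level, all paralogs set apart, members against the majority direction, and up to 4 examples from each list. *Cd68*, *Postn*, *Col1a2*, *Deptor*, *Rplp2* and the pseudogenes named were chosen after their values were seen. Some genes that the rule names are not reported here.

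Depth was estimated from the low TPM values. Taking 1 fragment at 1000 effective bases as 0.082 to 0.097 TPM, 83.9% to 86.7% of low values came within 0.15 of a whole number of fragments. On this scale, a gene at the members' median TPM and median coding length of 456 bases had about 5980 to 7660 fragments. Untranslated regions and the fragment length were left out of this rough estimate. Start windows came from RefSeq on GRCm38.p6, and coding lengths from GENCODE on GRCm39. The fit was tested on simulated data. Alternatives were another pseudocount, filter, scaling, fit, a replicate block, corrections for length and GC content (loess with a span of 0.5, fitted without the members), pseudogene rows added to members, and each library left out.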

Additional observations from a re-analysis of the deposited data

How the results depend on the processing

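Replicate numbers came from the library names, and nothing states that they pair libraries. Deviations of same-numbered libraries correlated at 0.108 (CypD KO and WT), -0.00175 (CypD OE and Control) and -0.0186 (Control and WT). With a replicate block, 1 member rose and 65 fell in CypD KO, 10 rose and 8 fell in CypD OE, and 0 rose and 17 fell in Control against WT. The block ended the call of *Rplp0* in CypD OE (adjusted p = 0.0602) and of no other named member.

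Over the alternatives tried, 418 of 441 values of named members kept their direction and side of the threshold, 21 lost significance and 2 reversed. The 2 are *Rpl39* in CypD KO, which was -0.14 with a correction for coding length and -0.11 with one for GC content and coding length. Both corrections were chosen after the data had been seen.

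In CypD KO, the members that rose numbered 0 with median-of-ratios scaling, without the trend and under every length correction, and 2 in a fit of the 4 libraries alone. The median was -0.33 with median-of-ratios scaling, -0.38 with a transcript length correction, with or without the block, and -0.46 with both coding length corrections. Annotated transcripts of many members run past their usual ends, so their transcript lengths are doubtful. The transcript length correction moved the median of all genes from 0.089 to -0.071, and the members' median relative to it from -0.341 to -0.313. Median-of-ratios scaling changed the calls over all genes from 4066 higher and 2486 lower to 3422 higher and 3144 lower.

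In CypD OE, members rose and fell in numbers of 28 and 4 (median 0.064) with nuclear protein-coding scaling, which moved the median of all genes to 0.076 (3504 higher and 1961 lower), 22 and 5 (0.035) with a transcript length correction, 20 and 5 (0.035) with this and the block, 22 and 5 (0.053) with a coding length correction and 26 and 5 (0.069) with GC content added. Without the trend they were 5 and 4. The number that fell was 5 without a filter and 7 in a fit of the 4 libraries. Over all genes, 2576 rose and 2481 fell in the main fit. With a transcript length correction 2724 of all genes rose and 2424 fell, and with a coding length correction 2729 rose and 2406 fell. The cause of these differences was not tested.

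In Control against WT, the members that fell numbered 31 with nuclear protein-coding scaling and 35 with a transcript length correction. They numbered 38 with a coding length correction (median -0.12) and 34 with GC content added (-0.11). Over all genes, 1635 were lower and 1634 higher in the main fit. In the same settings and order, 1922, 1995, 1898 and 1915 were lower and 1435, 1474, 1527 and 1534 higher. The members' median relative to all genes was -0.085 in the main fit and -0.091, -0.084, -0.114 and -0.107 in these settings. The members that fell numbered 13 without a filter, 11 in a fit of the 4 libraries and 8 without the trend. With a filter of 5 TPM 1 member rose. The summed share was 14.2%, 11.98%, 13.2% and 14.0% in WT, CypD KO, Control and CypD OE with nuclear protein-coding scaling, and 10.02% in CypD KO and 11.3% in CypD OE with pseudogene rows added.

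With each library left out in turn, 0 to 2 members rose and 56 to 66 fell in CypD KO, 9 to 12 rose and 5 to 12 fell in CypD OE, and 0 to 1 rose and 11 to 18 fell in Control against WT. Where this left a group with 1 library, its spread was assumed to be that of the others.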

Other observations

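Coding length was related to the change of the ribosomal protein genes in the other comparisons as well. In Control against WT, Spearman's rho between coding length and log2 fold change was -0.501 over the 77 genes, which share the same 4 libraries, and 13 of the 22 genes with more than 600 coding bases fell. The median log2 fold changes were -0.041 up to 300 bases and -0.14 between 600 and 1300 bases, beside 0.12 and -0.019 in other protein-coding genes. In CypD OE against Control, rho was 0.302, with the opposite sign. Control against WT shares the WT libraries with CypD KO against WT. It also shares the Control libraries, taken with the opposite sign, with CypD OE against Control. These correlations are therefore not independent. Mean expression was related less closely to the change, with a rho of -0.127 in CypD KO, 0.137 in CypD OE and 0.077 in Control against WT.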
